A study of Mus musculus with 40 samples.

Results

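The 34 genes described here mark the walls and coverings of brain vessels: mural cells, fibroblasts and leptomeninges. They were taken as the rows of a table of raw read counts whose Ensembl identifier, without its version, belonged to a given list of mouse symbols. All 34 were found among 56980 genes, and all 34 were among the 17880 genes with enough reads to be tested. The table came from polyadenylated RNA of brain tissue, given as medial prefrontal cortex in the title of the study, from wild type female C57BL/6J mice. Adolescent mice (start at postnatal day 25) or adult mice (start at postnatal day 55) drank oral antibiotics or stayed on water, and received subcutaneous saline or morphine at 15 mg/kg for 5 days. These 3 choices gave 8 groups of 5 libraries, 40 in all. The labels do not say whether each library came from a separate mouse, so p-values measure the spread between libraries, which may be partly technical. The question put to these genes was whether they differed with age, antibiotics or morphine, and how far the differences followed the amount of meningeal RNA in single libraries.

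Pericytes are the mural cells of capillaries, and smooth muscle cells wrap arteries and arterioles. Perivascular and meningeal fibroblasts make fibrillar collagens, while the basement membrane of vessels is built on type IV collagen. The leptomeninges, the thin inner coverings of the brain, express transporters, growth factor genes and the retinoic acid enzyme Aldh1a2, and lie directly on the cortex. By these roles the members were 7 pericyte genes (Pdgfrb, Rgs5, Kcnj8, Abcc9, Vtn, Anpep and Notch3), 5 smooth muscle genes (Acta2, Tagln, Myl9, Cnn1 and Myh11), 8 collagens (Col1a1, Col1a2, Col3a1, Col4a1, Col4a2, Col5a1, Col6a1 and Col6a2), 9 matrix proteins (Dcn, Lum, Bgn, Ogn, Islr, Aebp1, Fn1, Pcolce and Serpinh1) and 5 leptomeningeal genes (Igf2, Igfbp2, Slc6a13, Slc13a4 and Aldh1a2). The roles overlap in the animal, since Anpep and Vtn, for example, are not limited to pericytes.

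Short sequences from RefSeq (build GRCm38.p6) are shown for a smooth muscle promoter and for the shared start of the type IV collagen pair. The smooth muscle genes are textbook targets of serum response factor, which binds the CArG box. Among the 27 members with an entry in the RefSeq promoter table, Igf2 and Myl9 held the CArG box in the 250 bases before the gene's start; both strands were searched. Igf2 is a leptomeningeal member, and Myl9 was the 1 smooth muscle gene found with the box in this window. Members without an entry, and inexact forms of the box, were not searched. The box was present in 1.47% of all windows of this length (482 of 32851). That share counts single windows, while members were counted by gene over all windows of a gene, so the 2 are not alike. Around this box the Myl9 promoter, which encodes a myosin light chain of smooth muscle, reads as follows at chr2:156775274-156775344 on the plus strand, with the CArG box in capitals.

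Myl9: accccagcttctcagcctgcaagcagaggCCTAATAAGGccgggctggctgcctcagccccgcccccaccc

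Col4a1 and Col4a2 encode the main chains of type IV collagen and lie head to head. Their RefSeq starts, at 11312826 on the minus strand and 11312805 on the plus strand of chromosome 8, are so close that the first bases of both genes fall in the same run of 22 bases at chr8:11312805-11312826. It is shown on the plus strand because Col4a1 and Col4a2 were each other's closest member across libraries.

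Col4a1 and Col4a2: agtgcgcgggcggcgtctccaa

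Library totals ran from 8.64 to 12.1 M counts (M for mega), so 3 counts in a library stood for 0.248 to 0.347 CPM (counts divided by the library total in M). Levels are given as this CPM without further scaling, and are compared within a gene only, since CPM is not per length. The fits, and the marker means entered in them, used scaling by trimmed mean of M values (TMM). Most members were read well above the floor. Cnn1, a smooth muscle calponin, was the exception at 0.108 to 2.9 CPM and as few as 1 count, and Lum and Igf2 fell as low as 5 and 7 counts. The cortical label held, with Slc17a7, the glutamate transporter of cortical excitatory neurons, at 1510 to 1990 CPM. Choroid plexus was close to absent, with Ttr between 0 and 0.867 CPM. In bulk tissue, fewer cells of a type and less RNA per cell cannot be told apart.

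Before any comparison of groups, the libraries themselves stood apart in these genes. In 6 of the 8 groups 1 library was the highest of its 5 for most of the 34 members. It was replicate 5 of the adolescent water and saline group and replicate 1 of the adolescent antibiotics and saline group, each highest for 29 members. It was replicate 4 of the adolescent water and morphine group for 25 members. Among adults it was replicate 5 on water and saline for 22, replicate 3 on antibiotics and saline for 22 and replicate 2 on water and morphine for 19. In the adolescents given antibiotics and morphine, replicate 1 was highest for 15 members, and in the adults given both, no library was highest for more than 9.

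The smooth muscle genes made the largest such steps. Their mean was 2.24 times the group mean in adolescent water and saline replicate 5, 2.37 times in adolescent antibiotics and saline replicate 1, 1.92 times in adolescent water and morphine replicate 4 and 1.86 times in adult antibiotics and morphine replicate 2. In each of these 4 libraries all 5 smooth muscle genes were the highest of their group. The leptomeningeal genes stood at 1.48, 1.49 and 1.5 times the group mean in the 3 adolescent libraries, but at 0.946 times it in the adult one. In adult antibiotics and saline replicate 3 the leptomeningeal genes stood at 1.62 times and the matrix proteins at 1.37 times the group mean. Pericyte genes stayed within a much narrower band, and their mean reached 1.26 times the group mean in adolescent water and saline replicate 5. That library also held the highest endothelial sum of all 40 (841 CPM over 20 markers, with 497 to 721 in the rest of its group), the highest sum of border macrophage markers (59.7 CPM against 30.2 to 46.2) and the lowest sum of cortical neuron markers (4150 CPM against 4860 to 5010). Adolescent water and morphine replicate 4 had the highest endothelial sum of its group, 756 CPM against 552 to 652, and the highest macrophage sum, 54 against 33.2 to 48.3. The part of these cell types in the steps of the members was not tested.

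**Figure D1:**
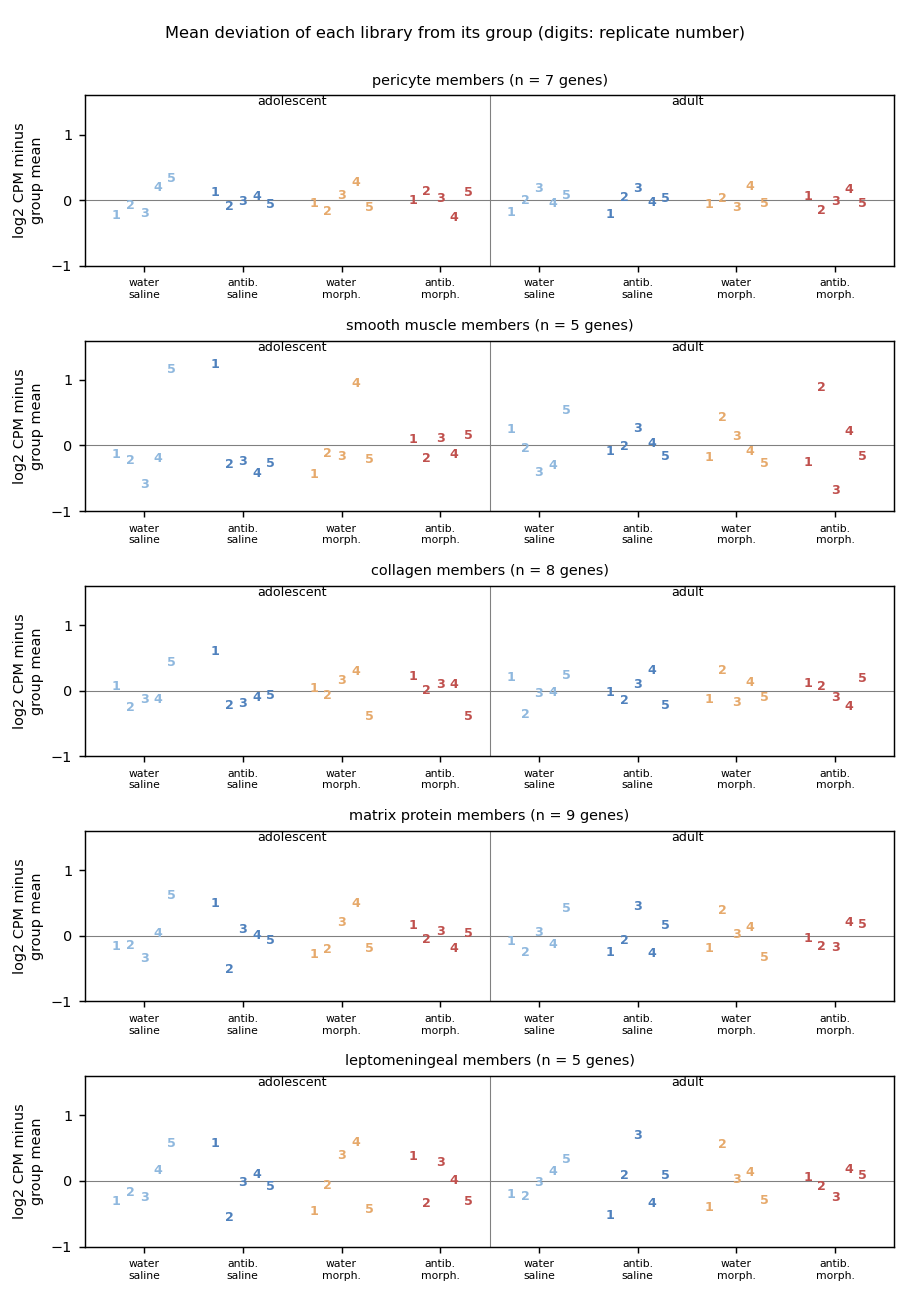
Mean deviation of each library from its group, in log2 CPM (vertical axis), for the members of each role, with groups along the horizontal axis and replicate numbers as symbols. The smooth muscle panel shows 4 libraries standing at 1.86 to 2.37 times their group mean, while the pericyte panel stays close to 0.

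Acta2, the actin of smooth muscle, shows the pattern gene by gene. Its CPM in the adolescents was 14.2, 13.5, 9.05, 14.6 and 40.1 on water and saline, and 49.1, 16.0, 12.6, 14.5 and 13.4 on antibiotics and saline. It was 10.3, 16.6, 11.9, 30.6 and 13 on water and morphine, and 13.1, 9.39, 10.2, 9.22 and 16.1 on antibiotics and morphine. Thus in each adolescent group but the one given both agents 1 library held the group's high value, and the other values of all 4 adolescent groups overlapped. In adults Acta2 was 21.5, 15.5, 11, 12.7 and 25.4 CPM on water and saline, 13.7, 13.9, 16.3, 11.1 and 7.06 on antibiotics and saline, 10.9, 14.6, 10.4, 8.32 and 7.99 with morphine on water, and 10.8, 29.0, 8.96, 15.8 and 14.6 on antibiotics and morphine. The adult groups overlapped as well. Acta2 passed the test in none of 17 comparisons, with log2 differences between -0.85 and 0.56 among pairs of groups.

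Pdgfrb, the receptor that pericytes need for recruitment to vessels, kept similar group means. Adolescents on water and saline had a mean of 33.9 ± 8.49 CPM (SD, n = 5), with means between 28.1 and 31.2 CPM in the other groups. Over 40 libraries it ran from 23 to 46.8 CPM around a median of 29.5, with the highest value in adolescent water and saline replicate 5. Neighbours in the order of its group means did not differ beyond their spread.

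**Figure D2:**
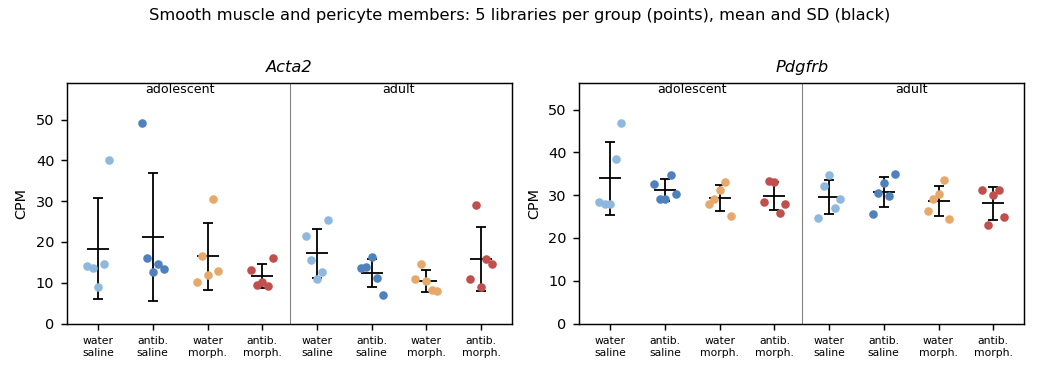
CPM (vertical axis) of Acta2 and Pdgfrb in 5 libraries per group (points) with mean and SD (black). Single libraries raise Acta2 to 40.1 and 49.1 CPM in adolescents given saline, while Pdgfrb keeps group means between 28.1 and 33.9 CPM.

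How the members moved together is described by Pearson's r of log2(CPM + 0.5), centred within each group, over the 40 libraries, which share their depth and dissection between genes. The median r between genes of 1 role was 0.83 for smooth muscle, 0.69 for leptomeningeal, 0.62 for matrix protein, 0.48 for collagen and 0.47 for pericyte members. Matrix proteins were as close to the leptomeningeal genes (median 0.64) as to each other. Aebp1, a secreted collagen-binding protein, had the highest r with Col1a1, Col1a2, Igf2, Igfbp2, Slc6a13 and Aldh1a2, at 0.77 to 0.86.

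The collagens split in their company. Col1a2 and Col1a1, the chains of type I collagen, had a median r of 0.81 and 0.74 with the leptomeningeal genes, and Col3a1, of type III collagen, 0.66. Col4a1 and Col4a2 had 0.11 and 0.04, but 0.73 with each other. Col5a1 and Col6a1 had -0.17 and -0.01, and 0.80 with each other. Among the pericyte genes Vtn and Anpep had medians of 0.69 and 0.64 with the leptomeningeal genes, against 0.01 for Kcnj8, a potassium channel subunit.

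For 15 gene pairs the relation was tested by permutation. Col1a1 and Slc6a13, a GABA and taurine transporter of leptomeningeal cells, had r = 0.82 and Spearman's rho = 0.82 (permutation p = 1e-05 for both, the smallest that 100000 permutations can give, with Benjamini-Hochberg adjusted p of 7.5e-05 and 0.00015 over the 15 pairs). Without the 2 libraries farthest in Col1a1, r was 0.79. Within ages it was 0.87 in 20 adolescent and 0.77 in 20 adult libraries. Acta2 and Pdgfrb had r = 0.13 and rho = -0.03 (permutation p = 0.52 and 0.87, adjusted over the 15 pairs 0.52 and 0.87). Without adolescent water and saline replicate 5 and adolescent antibiotics and saline replicate 1 their r was -0.12, and it was 0.55 in adolescents and -0.50 in adults.

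Genes outside the list were ranked by the same r over 16315 genes whose mean reached 1 CPM. Nearest to the leptomeningeal mean were Fmod (0.91), Slc22a6 (0.89), Bmp6 (0.89), Ptgds (0.88) and Sphk1 (0.86). Nearest to the smooth muscle mean were Gm48529 (0.93), Eln (0.87), Col18a1 (0.80), Fbln5 (0.74) and Vim (0.73). Gm48529 overlaps Tagln on the opposite strand, and since the strand setting of the counting is not given, its reads and those of Tagln cannot be told apart. Among the nearest to the pericyte mean were Tgfbr2 (0.88), Timp3 (0.84), Clic4 (0.84) and Abcb1a (0.84).

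The comparisons of groups called few members. Fits used edgeR's quasi-likelihood test over all 17880 genes, and a gene was called at a Benjamini-Hochberg adjusted p under 0.05. In 11 of 17 comparisons edgeR called 0 members, with between 0 and 5 of the 34 at an unadjusted p under 0.05. In those 11, DESeq2 called 0 in 8 and limma-voom called 0 in 9. The share of all genes called in these 11 comparisons was low too: among adolescents 0.0391% for antibiotics in saline, 0.319% for morphine on water and 1.24% for the interaction. Among adults it was 0.0503%, 0.475% and 0% for the same comparisons, 0.213% for morphine on antibiotics and 0.028% for antibiotics under morphine. For adults against adolescents it was 0.257% in mice on water with saline, 0.928% in mice on water with morphine and 1.04% in mice given both agents. A simulation covered morphine on antibiotics in adolescents, which is not among these 11 comparisons. It changed genes picked at random and drew each gene independently. There 55% of genes changed by 0.5 and 84% of genes changed by 1 on the log2 scale were recovered among 17880 genes. Recovery was not measured for the members, which moved together by library.

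Serpinh1, which encodes the collagen chaperone of the endoplasmic reticulum, was lower with antibiotics. In adolescents it stood at 15.4, 19.1, 18.2, 21.1 and 28.1 CPM on water and saline, and at 19.4, 15.7, 15.4, 19.4 and 19.4 on antibiotics and saline. It stood at 16.9, 20, 19.2, 27.4 and 24.0 CPM on water and morphine, and at 13.8, 11.4, 9.92, 12.9 and 13.4 on antibiotics and morphine. All 5 libraries given both lay below all 15 libraries of the other adolescent groups. In adults Serpinh1 was 15.0, 15.9, 14.4, 16.0 and 17.0 CPM on water and saline, 10.9, 12.9, 13.8, 13 and 13 on antibiotics and saline, 14.3, 17.3, 14.5, 20 and 13.5 with morphine on water, and 10.4, 9.67, 11.3, 10.8 and 12.9 on antibiotics and morphine. In adults both antibiotics groups lay below their water groups with no overlap, while the 2 saline and the 2 morphine groups overlapped in pairs on the same drink.

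Averaged over the 4 pairs of groups, antibiotics lowered Serpinh1 by a log2 difference of -0.46 ± 0.06 (SE; edgeR adjusted p = 1.78e-06). It was the 1 member of 34 called, where 7.50% of all genes were called. The difference was -0.82 ± 0.12 under morphine in adolescents (edgeR adjusted p = 2.12e-05), -0.20 ± 0.12 in saline in adolescents (0.613), -0.56 ± 0.13 under morphine in adults (0.104) and -0.28 ± 0.13 in saline in adults (0.436). The interaction in adolescents was -0.62 ± 0.17 with an edgeR adjusted p of 0.0571, and -0.28 ± 0.18 in adults (0.803). A larger difference under morphine did not pass in this edgeR fit at either age. In adolescents DESeq2 and limma-voom called it, as did edgeR fits with a replicate block within age or with the endothelial covariate below. The edgeR fit with the leptomeningeal covariate below did not call it. Under morphine in adults Serpinh1 was called lower with the leptomeningeal covariate and with the replicate block. With the mean log2 CPM of 21 leptomeningeal markers outside the list as a covariate in the fit, the average difference of Serpinh1 was -0.45 ± 0.06 (edgeR adjusted p = 2.31e-07), and Vtn and Igfbp2 were called lower too, with 7.68% of all genes called. With the mean of 20 endothelial genes as a covariate it was -0.39 (8.52e-06). Beside it, 4 of 20 endothelial genes were lower in the antibiotics average, led by Slco1c1 (-0.22, edgeR adjusted p = 0.00702) and Itm2a (-0.18, 0.0178), and 2 of 8 striatal neuron genes were higher, Ppp1r1b (0.29, 2.22e-05) and Pde10a (0.21, 7.8e-05). The part of neighbouring striatal tissue in the difference was not tested. Of 50 other genes of collagen making and matrix 1, Hspg2, was lower (-0.23, 0.0385).

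**Figure D3:**
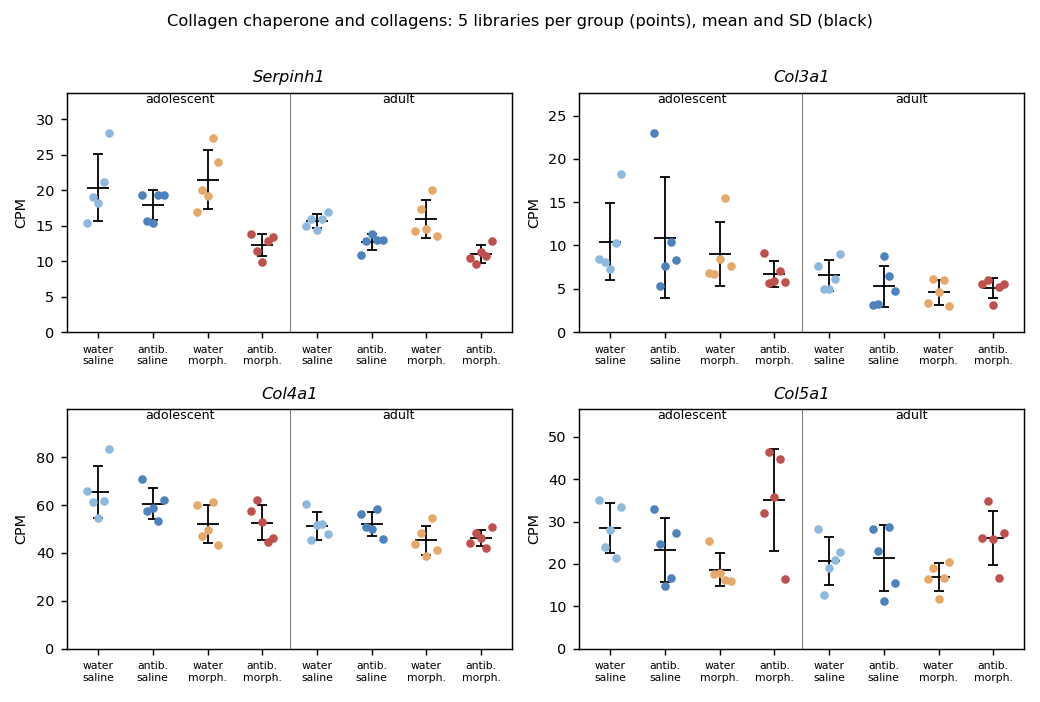
CPM (vertical axis) of Serpinh1, Col3a1, Col4a1 and Col5a1 in 5 libraries per group (points) with mean and SD (black). Serpinh1 is at 9.92 to 13.8 CPM in adolescents given antibiotics and morphine and at 15.4 CPM or more in every other adolescent library.

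In adolescents under morphine, antibiotics also changed Col5a1 and Anpep, so that 3 of 34 members were called where 7.56% of all genes were called. Col5a1 encodes a chain of type V collagen, which sets the width of collagen fibrils. Its CPM was 25.4, 17.7, 17.8, 16.3 and 16.0 on water and morphine, and 31.9, 46.4, 35.7, 44.7 and 16.4 on antibiotics and morphine. Replicate 5 of the group given both lay inside the range of the water group, and its other libraries lay above it. Col5a1 rose by 0.88 ± 0.25 on the log2 scale (edgeR adjusted p = 0.0275). It was no longer called without any 1 of 7 of the 10 libraries (replicates 2 to 5 on water, and 2 to 4 on antibiotics), with an edgeR adjusted p of up to 0.1. An antisense gene overlaps Col5a1, so its reads are uncertain in the same way as those of Tagln.

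Anpep, an aminopeptidase of pericytes and fibroblasts, was at 5.21, 5.81, 8.80, 7.75 and 5.68 CPM on water and morphine, and at 5.27, 3.67, 5.12, 3.07 and 3.96 on antibiotics and morphine. The highest library of the antibiotics group lay just above the lowest of the water group. It fell by 0.66 on the log2 scale (SE 0.20; edgeR adjusted p = 0.0277). It was not called without any 1 of 4 of these libraries (replicates 3 and 4 on water, 2 and 4 on antibiotics), with an edgeR adjusted p of up to 0.117.

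Col1a1, Acta2, Pdgfrb, Igf2 and Slc6a13 did not pass in this comparison, with log2 differences of -0.52, -0.51, 0.00, -0.56 and -0.32. The median of the 34 members was -0.24, and 28 were below 0, against a median of -0.01 and 52.2% below 0 over all genes. Without water and morphine replicate 4, the highest library of its group for 25 members, the median was -0.12 and Serpinh1 alone was called, as were 1068 genes in all. That library was picked for its high member values and lies in the water group, so a median nearer to 0 follows from the choice. The sum of 21 other leptomeningeal markers was 233 to 338 CPM on water and morphine and 234 to 291 on antibiotics and morphine. Ccn3 alone, a matricellular gene, made up 96.8 to 175 CPM of that sum over the 40 libraries. The mean log2 CPM of the same markers, which weights genes equally, was 2.43 ± 0.32 and 2.20 ± 0.20 (SD, n = 5 each).

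When that mean entered the fit of all genes as a covariate, the median of the 34 members in this comparison became -0.01, with 18 below 0. Serpinh1 kept its call at -0.71 (edgeR adjusted p = 6.15e-05), with 6.56% of all genes called. Col5a1 (0.79, adjusted p = 0.0557) and Anpep (-0.43, adjusted p = 0.0673) were no longer called. The covariate is measured in the same libraries, and whether it is itself altered by treatment cannot be told apart from the amount of meninges left on the tissue.

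Markers of other cells moved in this comparison as well. The 20 endothelial genes had a median of -0.21, and Emcn, a sialomucin of venous and capillary endothelium (-0.80, edgeR adjusted p = 0.018), and Slco1c1, a thyroid hormone transporter of brain endothelium (-0.38, 0.0228), were lower. With the endothelial mean as a covariate the median over members became -0.04, with 19 below 0, and Serpinh1 alone was called, at -0.67 (edgeR adjusted p = 6.01e-05), with 2007 genes called in all. Of the striatal neuron genes Ppp1r1b (0.49, edgeR adjusted p = 0.000271) and Pde10a (0.30, 0.00554) were higher, and of the cortical neuron genes Neurod6 (-0.55, 0.00891) was lower. The part of neighbouring tissue in the differences of the members was not tested.

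Morphine in adolescents on antibiotics shares its treated group with the comparison above. Serpinh1 was lower, at -0.53 ± 0.13 on the log2 scale (edgeR adjusted p = 0.0117), and so was Anpep, at -0.72 ± 0.20 (0.0286), so that 2 of 34 members were called where 2.92% of all genes were called. Neither call held for all libraries left out: Serpinh1 lost it without replicate 2 or 3 of the group given both (up to 0.0602), and Anpep without replicate 1 or 4 on saline or 2 or 4 on morphine (up to 0.125). Anpep was at 9.37, 5.59, 6.54, 7.11 and 6.58 CPM in the antibiotics and saline group, all above the 5 values of the group given both. Slc6a13 was at 24.1, 10.6, 15.8, 18.7 and 14.4 CPM there, and at 10.7, 5.72, 12.3, 9.42 and 6.78 with morphine. The 2 groups overlapped only between 10.6 and 12.3 CPM, and the difference of -0.88 ± 0.26 did not pass (edgeR adjusted p = 0.0527).

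Of all 34 members 29 had a negative difference here, with a median of -0.32, against -0.005 over all genes. By role the medians were -0.64 for the leptomeningeal, -0.63 for the smooth muscle, -0.31 for the matrix protein, -0.16 for the collagen and -0.12 for the pericyte members. Col1a1 (-0.45), Acta2 (-0.85), Pdgfrb (-0.06) and Igf2 (-0.78) did not pass. Without antibiotics and saline replicate 1, the highest library of its group for 29 members, the median was -0.12. As that library was picked for its high member values and lies in the saline group, a median nearer to 0 follows from the choice. The mean log2 CPM of the 21 other leptomeningeal markers was 2.49 ± 0.36 with saline and 2.20 ± 0.20 with morphine. With that mean as a covariate the median over members was -0.03, with 19 below 0, and edgeR called 0 of 34, with 1.85% of all genes called. With the endothelial covariate Serpinh1 stayed called and Anpep was not (edgeR adjusted p = 0.0537). Notch3, a receptor of mural cells, was called higher in that fit (0.31, edgeR adjusted p = 0.043). Another gene overlaps Notch3, so its reads are uncertain. Without the 4 libraries high in smooth muscle genes 1 member, Serpinh1, was called, with 381 genes called in all against 522 with them.

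Averaged over the 4 pairs of groups, morphine lowered 3 members, Slc6a13, Aldh1a2 and Col4a1, where 4.35% of all genes were called and 1.81% were called lower. Slc6a13 was at 10.3 to 24.1 CPM (median 14.1) in the 20 saline libraries and at 5.72 to 17.0 CPM (median 10.3) in the 20 morphine libraries. Its log2 difference was -0.56 ± 0.13 (edgeR adjusted p = 0.0069). Pair by pair it was -0.32 and -0.88 in adolescents on water and on antibiotics, and -0.67 and -0.37 in adults, none of which passed alone.

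Aldh1a2, which makes retinoic acid, was at 9.21 to 18.3 CPM (median 12.4) with saline and at 3.99 to 15.0 CPM (median 9.06) with morphine. The ranges overlapped widely. Its difference was -0.47 ± 0.12 (edgeR adjusted p = 0.0235), made up of -0.23, -0.59, -0.66 and -0.38 in the same 4 pairs. The other leptomeningeal members lay below 0 without passing: Igf2 at -0.57 (adjusted p = 0.0913), Igfbp2 at -0.30 (0.111) and Slc13a4 at -0.20 (0.502). Igf2, an insulin-like growth factor, was at 0.728 to 6.52 CPM over all libraries and overlaps the antisense gene Igf2os.

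**Figure D4:**
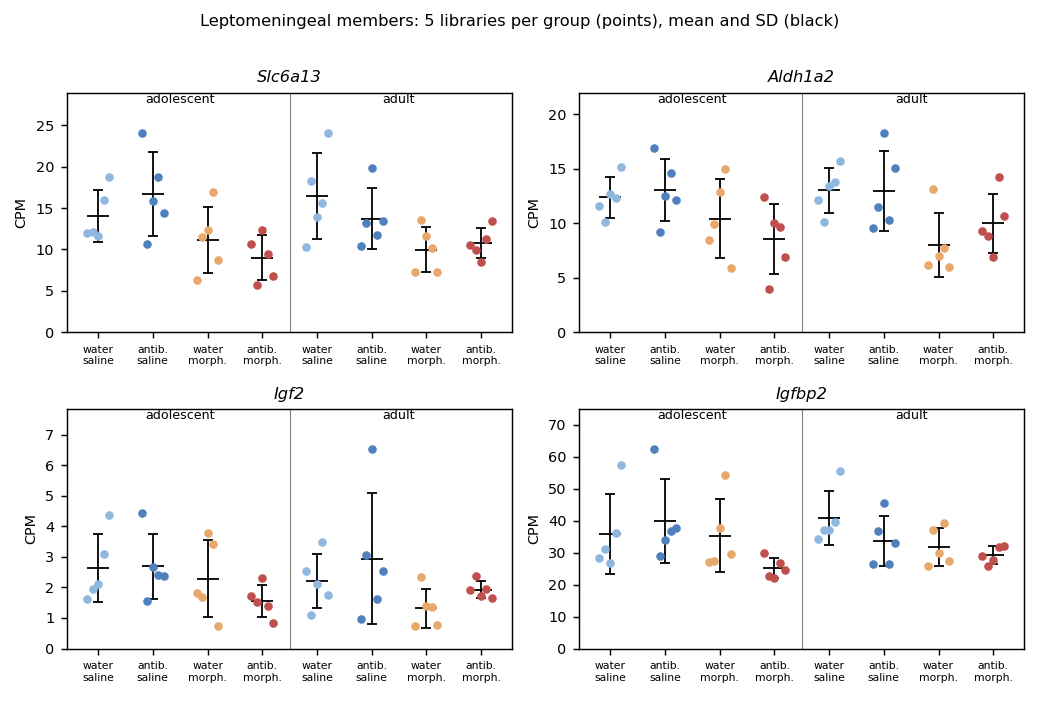
CPM (vertical axis) of Slc6a13, Aldh1a2, Igf2 and Igfbp2 in 5 libraries per group (points) with mean and SD (black). Slc6a13 has group means of 13.7 to 16.7 CPM with saline and of 9 to 11.2 CPM with morphine, with overlap between single libraries.

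Col4a1 was at 45.2 to 83.3 CPM (median 56.9) with saline and at 38.8 to 61.9 CPM (median 47.5) with morphine. Its difference was small but even, at -0.21 ± 0.05 (edgeR adjusted p = 0.007), with -0.30, -0.19, -0.15 and -0.18 in the 4 pairs. Its neighbour Col4a2 was at -0.17 ± 0.07 and did not pass (adjusted p = 0.177). Col1a1 (-0.15), Acta2 (-0.33) and Pdgfrb (-0.10) did not pass either. The median over the 34 members was -0.16, with 29 below 0, against 0.003 over all genes.

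The 21 other leptomeningeal markers had the same median of -0.16 in the morphine average, and 1 of them, the gap junction gene Gjb2, was called lower (-0.39 ± 0.12, edgeR adjusted p = 0.047). With their mean as a covariate Slc6a13 was at -0.44 (edgeR adjusted p = 5.27e-05), Aldh1a2 at -0.36 (0.0014) and Col4a1 at -0.19 (0.0139). All 3 thus kept their calls. Igfbp2, a binding protein of insulin-like growth factors, then passed at -0.18 (adjusted p = 0.0251) and Fn1, fibronectin, at 0.15 (0.0273). In that fit 3.60% of all genes were called. Aldh1a2 was not called without the 4 libraries high in smooth muscle genes (edgeR adjusted p = 0.0509).

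In adults on water, morphine gave negative differences in 26 of 34 members, with a median of -0.26 against 0.012 over all genes, and 0 were called. Slc6a13 was at 10.3, 18.3, 13.9, 15.6 and 24.1 CPM with saline and at 7.28, 13.6, 11.6, 10.2 and 7.23 with morphine, a difference of -0.67 ± 0.25 (edgeR adjusted p = 0.283). The values overlapped, with 2 of the 5 morphine libraries above the lowest saline library. The mean of the other leptomeningeal markers was 2.52 ± 0.23 with saline and 2.25 ± 0.23 with morphine. With it as a covariate the median over members was 0.00 and 0 of 34 were called, as were 0.252% of all genes. Col1a1 (-0.16), Acta2 (-0.67), Pdgfrb (0.00) and Igf2 (-0.69) did not pass.

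Adults differed from adolescents in 4 members in the average over treatments, all lower, where 8.57% of all genes were called lower and 17.9% in either direction. Col3a1 was at 5.28 to 23.0 CPM (median 7.83) in the 20 adolescent libraries and at 3.02 to 9.01 CPM (median 5.36) in the 20 adult libraries. The ranges overlapped, and the 3 highest adolescent values were those of antibiotics and saline replicate 1 (23.0), water and saline replicate 5 (18.2) and water and morphine replicate 4 (15.5). The difference was -0.75 ± 0.17 (edgeR adjusted p = 0.00197), with -0.67, -1.02, -0.92 and -0.39 in the 4 treatments. Without the 4 libraries high in smooth muscle genes, which include these 3, it was -0.51 and still called.

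Serpinh1 was at 9.92 to 28.1 CPM (median 18.7) in adolescents and at 9.67 to 20 CPM (median 13.7) in adults. Its age difference was -0.35 ± 0.06 (edgeR adjusted p = 7.58e-05). On antibiotics and saline alone it was -0.46 ± 0.13 (0.0204), the 1 member of 34 called there, where 5.97% of all genes were called. This call was lost without adolescent replicate 1 or 4 or adult replicate 1 (edgeR adjusted p up to 0.0611). Col4a1 was at 43.3 to 83.3 CPM (median 58.1) in adolescents and at 38.8 to 60.6 CPM (median 48.2) in adults, a difference of -0.22 ± 0.05 (0.00106). Col4a2 followed at -0.19 ± 0.07 with an edgeR adjusted p of 0.0495, and was not called in 22 of the 40 fits that each left out 1 library.

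Other members lay on both sides of 0. The median over all 34 was -0.02, against 0.008 over all genes, and 20 were below 0. None of the 7 pericyte, 5 smooth muscle and 5 leptomeningeal members passed. Col1a1 (-0.26), Acta2 (-0.25), Pdgfrb (-0.06), Igf2 (-0.13) and Slc6a13 (0.03) did not pass. Group means of the other leptomeningeal markers did not separate by age, at 2.20 to 2.49 in adolescents and 2.25 to 2.52 in adults.

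With the leptomeningeal mean as a covariate the median age difference over the members was -0.01, against -0.02 without it. In that fit 9 of 34 members were called, with 18.5% of all genes called. Col3a1 was at -0.73 with its SE falling from 0.17 to 0.09 (edgeR adjusted p = 2.62e-08). Col1a1 (-0.26, adjusted p = 0.00572) and Col1a2 (-0.23, 9.53e-05) joined Col3a1, Col4a1 and Serpinh1 as lower in adults. Ogn (0.43, 0.000303), Bgn (0.22, 0.0163), Aebp1 (0.19, 0.00769) and Slc13a4 (0.20, 0.0371) were higher in adults. Ogn and Bgn encode small leucine-rich proteoglycans, and Slc13a4 a sulfate transporter. Col4a2 was not called in this fit (adjusted p = 0.0528). Ogn overlaps Cenpp, so its reads are uncertain.

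**Figure D5:**
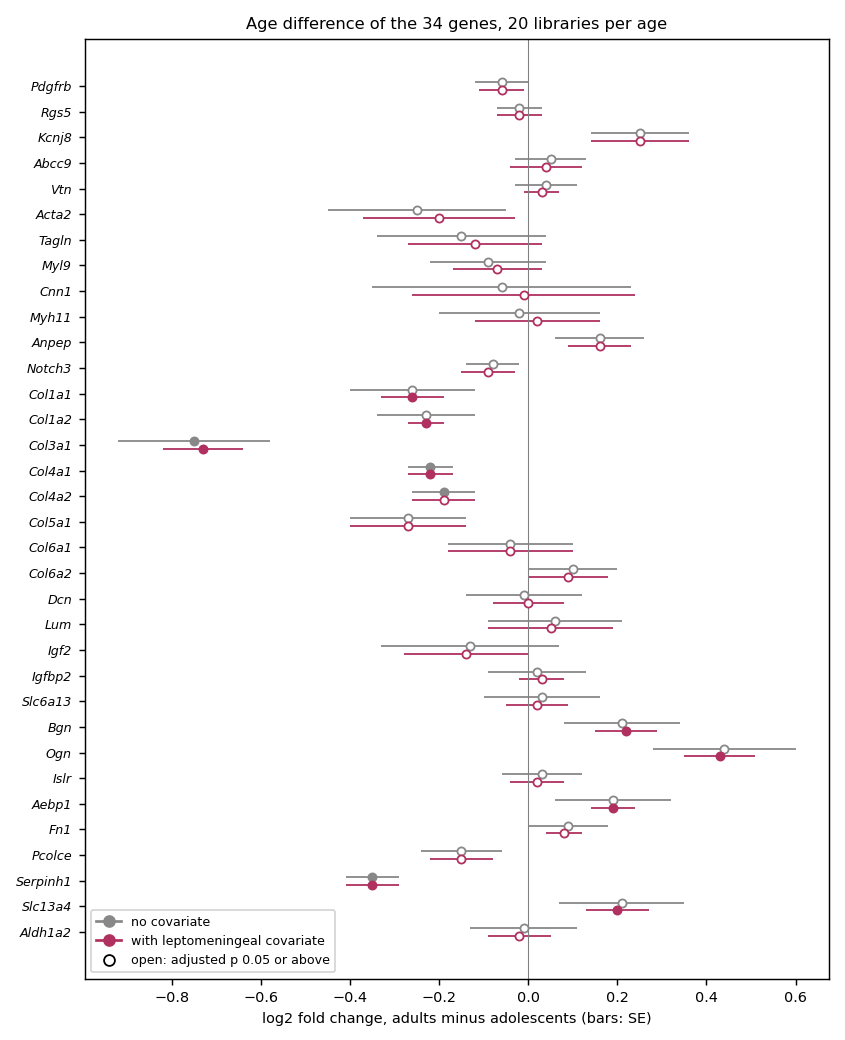
Log2 difference between adults and adolescents (horizontal axis; bars are SE) for the 34 members, without a covariate (grey) and with the leptomeningeal covariate (red); filled points have an edgeR adjusted p under 0.05. The points hardly move between fits, and 4 members are filled without and 9 with the covariate.

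Other genes of the same structures were read from lists that hold no member. Among 50 tested genes of collagen making and matrix, 7 were lower and 1 higher in adults, with a median of -0.09. Over all genes 8.57% were lower and 9.28% higher in this comparison. Sparc, which binds collagen, fell by 0.40 and Ppib, a chaperone partner of collagen folding, by 0.19 on the log2 scale (edgeR adjusted p = 1.14e-05 and 0.000124). The 1 higher gene was P4ha1, a collagen prolyl hydroxylase, at 0.18 (0.0118). In the same comparison 3 of 21 other pericyte and platelet-derived growth factor genes were lower, led by Higd1b (-0.47, edgeR adjusted p = 0.0267) and Pdgfb (-0.13, 0.0364). In the other direction 2 of 21 other smooth muscle genes, Mrtfb (0.18, 0.000122) and Synpo2 (0.29, 0.028), were higher, near the 9.28% over all genes.

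Endothelial genes moved with age as well, since 6 of 20 were lower in adults, led by Itm2a (-0.26, edgeR adjusted p = 0.000267) and Mfsd2a (-0.28, 0.00147). Over all genes 8.57% were lower in adults. With the mean of the 20 endothelial genes as a covariate, Col3a1, Col4a1 and Serpinh1 kept their age calls, Col4a2 lost its call (edgeR adjusted p = 0.0794) and Ogn was called higher in adults (0.56, 0.021). With antibiotics under morphine in adolescents, 7.56% of all genes were called. Of 50 collagen-making and matrix genes 2 were called, P4ha1 (-0.51, edgeR adjusted p = 0.00152) and Bmp1, which trims procollagens (0.53, 0.0379). In the morphine average, where 1.81% of all genes were lower, 2 of 50 were lower, Mmp14 (-0.37, 0.00709) and Lamb1 (-0.20, 0.0358). Blood genes rose with morphine in 2 of 5 cases, Hba-a1 (0.31, 0.00373) and Hbb-bs (0.24, 0.0436), and in 3 of 5 cases with age. Over all genes 2.54% were higher in the morphine average and 9.28% in the age average. The part of blood genes in the differences of the members was not tested.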

How the data were processed

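The authors deposited a single table of raw read counts for 56980 genes in 40 libraries, with no normalization. STAR 2.7.10a, DESeq2 and build mm10 appear in the submitters' processing notes, which state no roles; neither the annotation nor the strand setting is given in the sources used. Libraries were made from polyA RNA with a rapid kit, per the labels' protocols. Identifiers were matched without version to GENCODE symbols (52073, or 91.4%). Libraries of a group differed by a chi-square of 2.2 to 16.19 per gene, so none was counted as a duplicate.

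Counts were fitted in R 4.3.3 with edgeR 4.0.16: filterByExpr (minimum count 10, minimum total 15), TMM scaling, 1 coefficient per group over all 40 libraries, robust quasi-likelihood F tests (two-sided) and Benjamini-Hochberg adjustment over 17880 genes. Covariate fits added the mean log2 CPM of 21 leptomeningeal markers or 20 endothelial markers, none of them members. DESeq2 1.42.0, limma 3.58.1, other filters, size factors and left-out libraries were tried as alternatives. The fit was tested on simulated data. Floors cover counting error only, while SD and SE values hold the spread between libraries. Values in every library or as ranges are given for called members, and Col1a1, Acta2, Pdgfrb, Igf2 and Slc6a13 are given whatever their p. From other lists up to 2 called genes of smallest p are named, others after their values were seen. Of the genes ranked by likeness, 1 is not reported here. The members and all lists were chosen with earlier results of these data known.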

Additional observations from a re-analysis of the deposited data

Results flagged for a closer look

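Single libraries stood far from the other 4 of their group in 12 of 136 sets of 5 values checked by Dixon's ratio, whose 95% critical value is 0.71 for 5 values. About 1 set in 20 passes by chance, and 11 of the 12 were high. The sets share libraries, and some role means hold genes that were also checked singly, so the sets are not independent. In adolescent water and saline replicate 5, Acta2 was at 40.1 CPM (others 9.05 to 14.6), Col3a1 at 18.2 (7.26 to 10.3) and Col4a2 at 104 (64.2 to 68.8). In adolescent antibiotics and saline replicate 1, Acta2 was at 49.1 CPM (12.6 to 16.0). Col3a1 was at 15.5 CPM in adolescent water and morphine replicate 4 (6.71 to 8.48), and Col5a1 at 25.4 in replicate 1 of that group (16.0 to 17.8). Aldh1a2 was at 13.1 CPM in adult water and morphine replicate 2 (5.94 to 7.69). The low value was Anpep at 5.42 CPM in adult water and morphine replicate 3 (6.76 to 7.16).

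The mean log2 CPM of the smooth muscle members was 4.36 in adolescent water and saline replicate 5 (others 2.6 to 3.06), 4.47 in adolescent antibiotics and saline replicate 1 (2.80 to 2.99) and 4.06 in adolescent water and morphine replicate 4 (2.67 to 3.00). For the collagens it was 5.49 in adolescent antibiotics and saline replicate 1 (4.67 to 4.83). What sets these libraries apart was not tested.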

How the results depend on the processing

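No called value changed sign under any alternative, and the cause of each change below was not tested. The number of all genes called follows each member count in parentheses. Without a filter, edgeR called 1 member each for morphine on water in adolescents (137 genes), the interaction in adolescents (485), antibiotics under morphine in adults (44), and age on water with saline (139) and on water with morphine (310), where it called 0. DESeq2 called 2 for the interaction in adolescents (454), 1 for antibiotics under morphine in adults (26), 2 for age on antibiotics and saline (1308) and 1 for age on water and morphine (380). Limma-voom called 1 for the interaction in adolescents (457) and 1 for age on water and morphine (380). Fits of the compared groups alone called 1 for morphine on water in adults (148; Col6a2) and 1 for age on antibiotics and morphine (171; Bgn), and lost Col5a1 (edgeR adjusted p = 0.0812). The leptomeningeal covariate gave 0 for morphine on antibiotics (331) and 1 for antibiotics under morphine (1173) in adolescents, 1 for antibiotics under morphine in adults (10), 2 each for age in saline on water (59) and on antibiotics (941), 9 for the age average (3308), 3 for the antibiotics average (1374) and 5 for the morphine average (643). The endothelial covariate gave 1 for antibiotics under morphine in adolescents (2007), 1 for the interaction there (746) and 2 for age on antibiotics and saline (1195). Without the 4 libraries high in smooth muscle genes, an alternative chosen after seeing the data, 1 member was called for morphine on antibiotics (381) and 1 for antibiotics under morphine (1231) in adolescents.

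Medians over the 34 members did turn under the leptomeningeal covariate in 7 comparisons: from -0.36 to 0.16 for the interaction in adolescents (24 and 7 members below 0), from 0.2 to -0.05 for that in adults, from 0.06 to -0.15 for antibiotics in saline in adolescents (33 below 0 with it), from 0.06 to -0.06 for antibiotics under morphine in adults, and, for age, from 0.01 to -0.18 on water and saline, from -0.1 to 0.04 on antibiotics and saline and from -0.12 to 0.02 on water and morphine.

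With a replicate block within age, 1 member, Serpinh1, was called for the interaction in adolescents (232), for antibiotics under morphine in adults (8) and for age on water and morphine (191). The replicate numbers were not taken to pair the libraries, since the labels give the numbers without stating a pairing. Same-numbered libraries of an age had an r over 0.1 in 4 of 60 pairs. This cannot decide the question, because differently numbered pairs were not counted beside them. As a hint from the data and not the design, 16 of 40 libraries correlated best with their own number, against 8 if the numbers were unrelated.

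When 1 library was left out at a time, the number of members called ran from 0 to 3 for morphine on antibiotics in adolescents, from 1 to 3 for antibiotics under morphine in adolescents, from 0 to 2 for the interaction in adolescents, from 0 to 2 for age on antibiotics and saline, from 0 to 1 for age on water and morphine, from 3 to 5 for the age average, from 1 to 2 for the antibiotics average and from 3 to 4 for the morphine average, and stayed at 0 in the other 9 comparisons. Col3a1, Col4a1 and Serpinh1 in the age average, Serpinh1 in the antibiotics average, and Slc6a13, Aldh1a2 and Col4a1 in the morphine average kept their calls in each of these 40 fits. Depth limits Cnn1, Lum and Igf2 most, whose lowest libraries held 1, 5 and 7 counts.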
